A study of Mus musculus with 25 samples.

Results

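The genes of the pyruvate dehydrogenase kinases (*Pdk1*, *Pdk2*, *Pdk3* and *Pdk4*) and of the pyruvate dehydrogenase phosphatases (*Pdp1*, *Pdp2* and the regulatory subunit gene *Pdpr*) were taken by symbol from the counts of *soleus* RNA, 7 of 52636 genes in all. Each symbol matched 1 gene, and all 7 passed the filter on low counts that left 16340 tested genes. The *soleus* came from 25 C57BL/6 mice of 12 weeks in 4 groups. Those at rest were 5 WT and 7 mD3AKO animals. The other 7 WT and 6 mD3AKO animals were killed 60 minutes after they had run on a treadmill for 30 minutes. The WT mice were *Dnmt3a* flox/flox. The mD3AKO mice were *Dnmt3a* flox/flox with a *mCK-Cre* transgene, in which the muscle creatine kinase promoter drives Cre in skeletal muscle and heart, so that other cells of the muscle may keep *Dnmt3a*, which was not tested. All mice thus carried the floxed alleles, and the rested mice spent the same time on a sham treadmill. There were 12 females, with mouse numbers 1 to 6 and 20 to 25, and 13 males, with numbers 7 to 19. No run of numbers held both sexes, so that a difference between males and females cannot be told apart from one between runs. The numbers are those of the labels, and each library is 1 mouse.

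The pyruvate dehydrogenase complex turns pyruvate into acetyl-CoA in mitochondria and so commits carbohydrate to oxidation. The kinases phosphorylate its E1 alpha subunit and switch the complex off, and the phosphatases remove the phosphate and switch it on. In skeletal muscle *Pdk4* is known for its induction by fasting, fatty acids, glucocorticoids and exercise, and *Pdk2* is the kinase found in most tissues. *Pdp1* encodes the calcium-stimulated phosphatase, *Pdp2* the insulin-sensitive phosphatase, and *Pdpr* a regulatory subunit of the phosphatase.

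The study removed a DNA methyltransferase, so the promoters are shown with each CpG, the dinucleotide where it acts, in capitals. Each sequence runs 5′ to 3′ over 300 bases, from 250 before the start site to 50 within the gene, from RefSeq on GRCm38.p6, the assembly of mm10. The table held promoters of 6 of the 7 genes. Printed are that of *Pdk4*, the gene with the highest level, that of *Pdk2*, the next kinase, and that of *Pdpr*, which has the most CpGs. They lie at chr6:5496229-5496528 on the minus strand, chr11:95041322-95041621 on the minus strand and chr8:111094495-111094794 on the plus strand.
Pdk4: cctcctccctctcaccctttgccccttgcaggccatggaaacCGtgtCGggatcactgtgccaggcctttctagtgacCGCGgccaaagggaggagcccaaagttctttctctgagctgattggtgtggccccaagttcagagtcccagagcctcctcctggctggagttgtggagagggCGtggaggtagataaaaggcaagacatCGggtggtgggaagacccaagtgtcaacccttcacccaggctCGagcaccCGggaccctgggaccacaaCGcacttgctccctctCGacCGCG
Pdk2: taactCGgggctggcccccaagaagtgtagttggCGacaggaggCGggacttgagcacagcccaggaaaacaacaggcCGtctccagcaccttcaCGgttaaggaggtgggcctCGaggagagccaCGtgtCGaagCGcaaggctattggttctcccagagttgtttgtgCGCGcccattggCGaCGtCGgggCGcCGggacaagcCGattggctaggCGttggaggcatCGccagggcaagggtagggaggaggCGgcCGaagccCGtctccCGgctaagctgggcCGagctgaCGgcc
Pdpr: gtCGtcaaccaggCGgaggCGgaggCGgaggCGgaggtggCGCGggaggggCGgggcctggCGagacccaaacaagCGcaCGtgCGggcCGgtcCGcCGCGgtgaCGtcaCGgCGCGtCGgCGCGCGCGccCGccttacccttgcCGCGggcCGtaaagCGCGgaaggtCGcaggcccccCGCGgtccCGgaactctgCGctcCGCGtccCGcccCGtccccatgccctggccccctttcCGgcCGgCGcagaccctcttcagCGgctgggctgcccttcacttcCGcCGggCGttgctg

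The *Pdk4* promoter held 12 CpGs in 300 bases, the *Pdp2* promoter 14, the *Pdk3* promoter 35 and the *Pdpr* promoter 47. *Pdk1* and *Pdk2* each have 2 start sites in the table, with 25 and 2 CpGs at those of *Pdk1* and 25 and 13 at those of *Pdk2*. Over 32851 mouse promoters of this length the median was 7 CpGs, with quartiles of 3 and 20. All sites shown but the second one of *Pdk1* were therefore above the median, and *Pdk4* had the fewest CpGs of the genes when the richer site of each was taken. Motifs of factors described for these genes were searched on both strands. The FoxO motif TGTTTAC, the nuclear receptor core site AGGTCA, the direct repeat of that site spaced by 1 base, the ERR element TCAAGGTCA and the glucocorticoid element were found in none of these windows. These letters occur in 3.65%, 16.3%, 0.0396%, 0.423% and 0.475% of all promoters in the same order, and every direct repeat and ERR match also counts as a core site. The CRE letters TGACGTCA stand in the *Pdpr* window 148 bases before the start site, and in 1.79% of all promoters. The HIF element TACGTG stands in the *Pdk3* window 54 bases before the start site, and in 3.23% of all promoters.

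The libraries held 22671457 to 37431801 counts, with a median of 32189360, at which 1 CPM (a count scaled to library size) is about 32.2 reads. *Dnmt3a*, the targeted gene, had 116 ± 13.2 CPM (SD) in the 12 WT mice. The 13 mD3AKO mice had 40.9 ± 5.86 CPM, and no mD3AKO mouse reached the lowest WT mouse. The markers of muscle fibers summed to 75969 to 100011 CPM, and the 4 heart genes to 7.76 to 15.1 CPM. Of these *Myh6* averaged 10.5 CPM and *Tnni3* 0.348 CPM, and *Nppa* and *Myl7* were too low to be tested. Mouse 15, a rested male mD3AKO mouse, stood apart. Ribosomal RNA genes took 39.6% of its counts and 7.95% to 13.1% of those of the other 24 libraries, and it had the fewest counts. In CPM, for which its library had a TMM scaling factor of 0.631, its *Pdk1*, *Pdk2*, *Pdp1* and *Pdpr* values were the highest of all mice. Its raw counts of these genes were the lowest of all mice, at 4723, 4485, 1890 and 3335. Without it no call of a member changed for exercise, genotype, the interaction or sex, and the signs of the exercise difference of *Pdk1* (0.0100), the genotype difference of *Pdp1* (-0.031) and the exercise response in mD3AKO mice (0.062) and interaction (0.059) of *Pdk2* turned. In whole muscle, fewer cells of a type and less RNA per cell cannot be told apart.

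*Pdk4* was by far the most abundant of the 7 genes and also the one that differed most between mice. Levels of different genes were compared as CPM per kilobase of exon length. *Pdk4* was at 333 CPM per kilobase on average over the 25 mice, *Pdk2* at 79.2, *Pdpr* at 38.0, *Pdk1* at 34.7, *Pdp1* at 19.8, *Pdp2* at 3.26 and *Pdk3* at 0.979. This order held in 23 of 25 mice. In the other 2, *Pdk1* exceeded *Pdpr*, and these neighbours overlapped in range. By exon length *Pdk4* was above *Pdk2* within every mouse although the ranges of the 2 genes over mice overlapped, since the lowest *Pdk4* value was 92.0 and the highest *Pdk2* value 99.2. *Pdk2* and *Pdpr*, *Pdp1* and *Pdp2*, and *Pdp2* and *Pdk3* did not overlap. *Pdk3*, which lies on the X chromosome, rested on only 29 to 142 counts per library. Lengths from the longest transcript in place of all exons raised *Pdk1* to 52.1 and *Pdk2* to 111 CPM per kilobase, which placed *Pdk1* above *Pdpr* at 38.7. With these lengths *Pdk4* was below *Pdk2* in mouse 13, at 92.7 against 117 CPM per kilobase, and above it in the other mice.

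**Figure D1:**
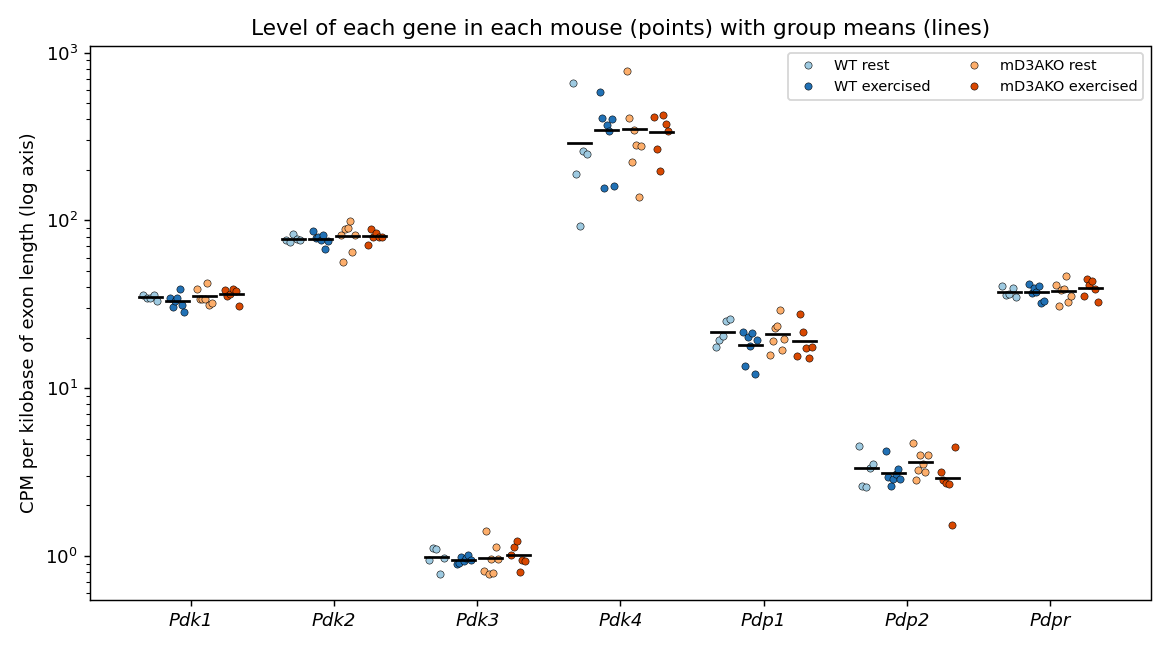
CPM per kilobase of exon length on a log axis for the 7 genes, with 1 point per mouse, colored by group, and a line at each group's mean. *Pdk4* lies highest and spreads widest, from 92.0 to 776, and the groups overlap for every gene.

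*Pdk4* was at 1019 ± 765 CPM (SD, n = 5) in rested WT mice, 1210 ± 520 (n = 7) in exercised WT mice, 1229 ± 725 (n = 7) in rested mD3AKO mice and 1182 ± 312 (n = 6) in exercised mD3AKO mice. The 5 rested WT mice were at 323, 666, 872, 913 and 2323 CPM. The exercised WT mice ran from 551 to 2033 with a median of 1295, the rested mD3AKO mice from 483 to 2724 with a median of 990, and the exercised mD3AKO mice from 695 to 1499 with a median of 1257. The groups overlapped widely, and the 2 highest of all mice, numbers 2 and 1, were both rested. The highest mouse was 8.43-fold above the lowest, and both were at rest.

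In log2 units the SD of *Pdk4* between mice of a group was 0.747, at percentile 96.7 of all tested genes, for which the median SD was 0.224. Among the 132 genes within 1 log2 unit of its level it was at percentile 98.5. *Pdp2* (0.338) and *Pdp1* (0.307) followed, and *Pdk3* (0.217), *Pdk2* (0.174), *Pdpr* (0.165) and *Pdk1* (0.132) were below the median of all genes. Among genes of their own level the order was another, with *Pdp1* at percentile 93.5, *Pdp2* at 92.2, *Pdk2* at 66.9, *Pdpr* at 66.0, *Pdk1* at 34.0 and *Pdk3* at 22.0. These percentiles describe the spread and are not a test.

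*Pdk4* made up 71.3 ± 10.0% (SD, n = 25) of the sum of the 4 kinases in CPM per kilobase, *Pdk2* 19.8 ± 7.17%, *Pdk1* 8.63 ± 2.85% and *Pdk3* 0.250% with a range of 0.0906% to 0.525%. The share of *Pdk4* ran from 43.7% in mouse 13, a rested WT male, to 86.4% in mouse 2, a rested mD3AKO female. By group its mean was 66.2% in rested WT, 72.9% in exercised WT, 71.7% in rested mD3AKO and 73.1% in exercised mD3AKO mice. The sum of *Pdk1*, *Pdk2* and *Pdk3* was 115 ± 10.4 CPM per kilobase, from 91.7 to 142, against 92.0 to 776 for *Pdk4* alone. Of the 2 phosphatases with catalytic activity, *Pdp1* made up 85.6 ± 3.84% of the sum, and the kinase sum was 20.4 ± 9.22 times the phosphatase sum, from 9.14 to 43.9. With lengths of the longest transcript the *Pdk4* share was 63.9%, and in mouse 13 it was 35.3%, below the 44.7% of *Pdk2*.

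**Figure D2:**
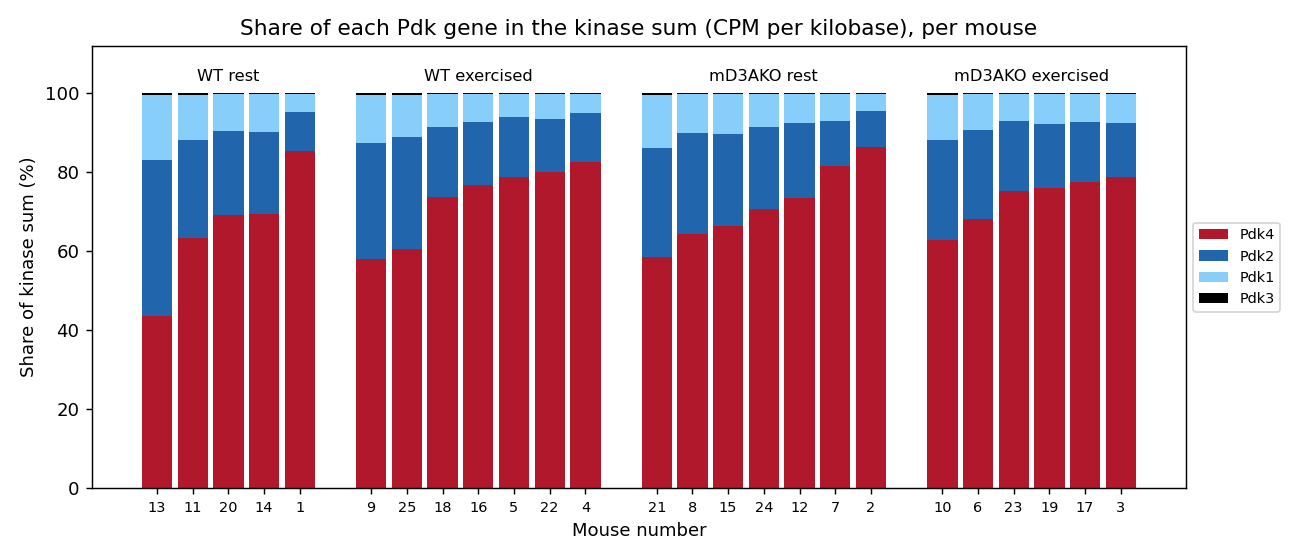
Stacked bars of the share of each kinase gene in the kinase sum (percent of CPM per kilobase), 1 bar per mouse, ordered by the *Pdk4* share within each group. With these exon lengths *Pdk4* is the largest share in all 25 mice, from 43.7% to 86.4%, whereas with lengths of the longest transcript *Pdk2* is larger in mouse 13.

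The exercised mice were compared with the rested mice to see whether these RNAs differed 60 minutes after a bout of running. A change that had ended before that point was not measured. None of the 7 genes passed the test for exercise (edgeR's quasi-likelihood test, adjusted p from 0.343 to 0.992), and none did at an unadjusted p under 0.05, while 10.4% of all tested genes did at an adjusted p under 0.05. DESeq2 called none of them either. *Pdk4* differed by 0.095 on the log2 scale (SE 0.276, n = 25), with a 95% interval from -0.47 to 0.66, or a fold of 0.721 to 1.58. The difference was -0.23 in females (SE 0.384) and 0.38 in males (SE 0.362), of opposite sign, and the test of that difference between the sexes did not pass (edgeR adjusted p = 1.00, unadjusted p = 0.258). Leaving out 1 mouse at a time gave -0.020 to 0.37, the highest without mouse 1. For *Pdk1*, *Pdk2* and *Pdpr* the intervals were narrow: exercised over rested was 0.915 to 1.07 in *Pdk1*, 0.910 to 1.10 in *Pdk2* and 0.930 to 1.12 in *Pdpr*. *Pdk3* gave 0.869 to 1.14.

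The phosphatases had the lowest p-values, but neither passed. *Pdp1* was at 95.9 ± 18.3 CPM (SD, n = 12) at rest and 83.4 ± 18.4 (n = 13) after exercise, a log2 difference of -0.20 (SE 0.115, edgeR adjusted p = 0.343). *Pdp2* was at 20.0 ± 3.98 CPM at rest and 17.2 ± 4.18 after exercise, a log2 difference of -0.21 (SE 0.126, edgeR adjusted p = 0.377). The rested and exercised mice overlapped in both. Within WT mice (3.59% of all genes called) and within mD3AKO mice (6.02% called) no member passed the test either.

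**Figure D3:**
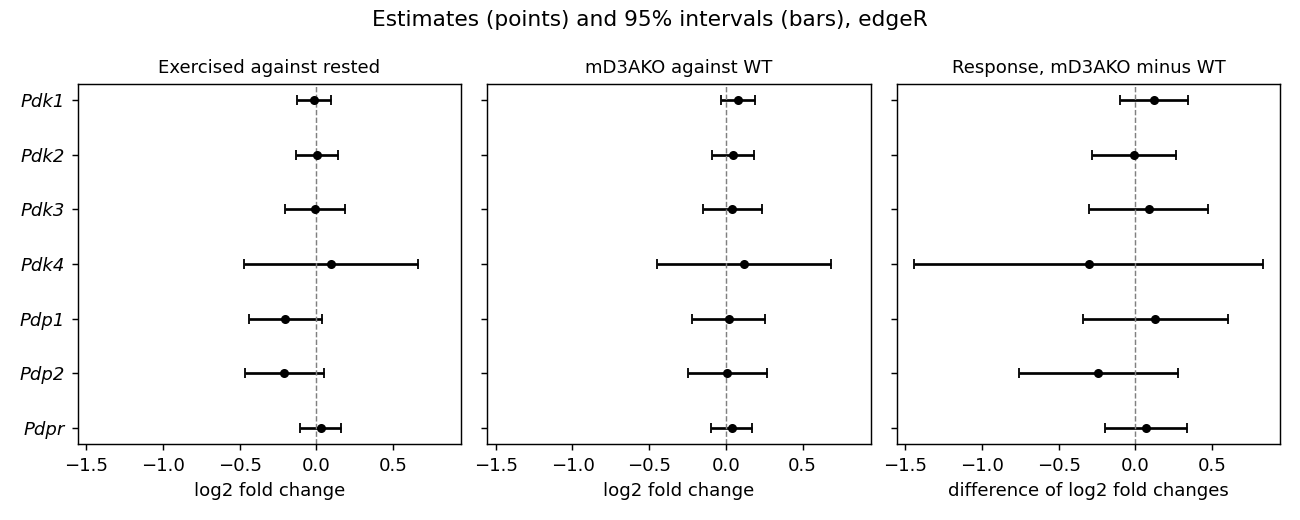
Estimates with 95% intervals for each gene, on the log2 scale: exercised against rested, mD3AKO against WT, and the difference of the exercise response between the genotypes. Each of the 21 intervals includes 0, and those of *Pdk4* are the widest.

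No member passed the test for mD3AKO against WT (edgeR adjusted p from 0.940 to 1.00, 0 at an unadjusted p under 0.05, 0 called by DESeq2), against 0.269% of all tested genes. *Pdk4* differed by 0.12 (SE 0.276, 95% interval -0.45 to 0.69). Its difference was 0.50 in males (SE 0.365) and -0.19 in females (SE 0.385), of opposite sign, and the test of the difference between the sexes did not pass (edgeR adjusted p = 1.00, unadjusted p = 0.202). Leaving out 1 mouse at a time gave -0.048 to 0.40. *Pdk1*, which had the lowest p, differed by 0.080 (SE 0.0541, 95% interval -0.031 to 0.19). *Pdk1* was at 262 ± 21.8 CPM in WT and 278 ± 26.9 CPM in mD3AKO mice, and the ranges overlapped. No member passed the test of whether the exercise response differed by genotype, with 0 at an unadjusted p under 0.05. For all tested genes that test called 0% by edgeR and 403 genes had an unadjusted p under 0.05. For *Pdk4* the difference of the responses was -0.30 (SE 0.552), with an interval from -1.44 to 0.83.

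None of the 5 subunit genes of the complex that the members act on (*Pdha1*, *Pdhb*, *Dlat*, *Dld* and *Pdhx*) passed the test for exercise, with a median log2 difference of 0.02 beside -0.00088 over all tested genes. *Pdha1*, which encodes the phosphorylated E1 alpha subunit, was at 981 CPM over the 25 mice and differed by 0.02 after exercise (SE 0.0690, adjusted p = 0.928). The other lists of metabolism held 10 genes of pyruvate supply and its other fates, 5 of lipoate and thiamine supply, and 5 of the related branched-chain system with its kinase *Bckdk* and phosphatase *Ppm1k*, and 0 of these 20 passed for exercise. No gene of any list passed the test for genotype.

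By contrast, several factors known to act at the *Pdk4* gene rose with exercise while *Pdk4* itself did not pass. Of 10 such genes, 4 rose and 1 fell, beside 5.70% and 4.69% of all tested genes. *Foxo1*, a forkhead factor, rose by 1.25 (SE 0.106, adjusted p = 3.1e-09), from 13.8 to 34.4 CPM in WT and from 15.1 to 34.1 CPM in mD3AKO mice. *Ppargc1a*, which encodes the coactivator PGC-1 alpha, rose by 1.10 (SE 0.115, adjusted p = 1.4e-07). *Ppara*, a receptor for fatty acids, rose by 1.09 (SE 0.0887, adjusted p = 1.6e-09), and *Foxo3* rose by 0.50 (SE 0.101, adjusted p = 0.00122). *Ppargc1b* fell by 0.21 (SE 0.0671, adjusted p = 0.0493). The glucocorticoid receptor gene *Nr3c1* (-0.11, adjusted p = 0.364) and *Ppard* (0.15, adjusted p = 0.292) did not pass.

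Genes that respond to glucocorticoids or FoxO factors rose in 9 of 10 cases, beside 5.70% of all tested genes. Their median log2 difference was 1.07, beside -0.00088 over all tested genes. *Ddit4*, an inhibitor of mTORC1 signaling, rose by 2.48 (SE 0.177), *Cebpd* by 1.86 (SE 0.163), *Tsc22d3*, a glucocorticoid-induced leucine zipper gene, by 1.33 (SE 0.0806), the kinase gene *Sgk1* by 1.24 (SE 0.135) and *Zbtb16*, a zinc finger repressor, by 0.77 (SE 0.0891). The atrophy ligase gene *Fbxo32* was the exception at -0.15 (SE 0.106, adjusted p = 0.477). Of 7 hypoxia-inducible genes that share HIF control with *Pdk1*, *Egln3* (0.85, SE 0.102) and *Vegfa* (0.21, SE 0.0560) rose and *Ankrd37* fell by 0.41 (SE 0.125). These were 2 higher and 1 lower, beside 5.70% and 4.69% of all tested genes. None of 14 PPAR and fatty acid oxidation genes passed.

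Across mice *Pdk4* correlated by both r and Spearman's rho with *Ucp3* and with the slow troponin genes *Tnnt1* and *Tnni1*. By r alone *Pdk4* also correlated with *Acot2*, *Cd36*, *Tnnc1* and *Acta1*. Its deviations from the group means in log2 CPM were set against those of the 110 tested genes of the fixed lists, a comparison chosen after values had been seen, with within-group permutation tests of 100000 resamples adjusted over the 110. *Ucp3*, a mitochondrial carrier of muscle, had the highest correlation (r = 0.82, permutation adjusted p = 0.00165; rho = 0.76, permutation adjusted p = 0.0143). *Ucp3* ran from 42.2 to 171 CPM. Without the 2 mice farthest from the *Pdk4* median r was 0.76, in females 0.91 and in males 0.81. Within mice 1 to 6 it was 0.71 and within mice 20 to 25 it was 0.98.

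Of the slow troponin genes, *Tnnt1* (r = 0.73, permutation adjusted p = 0.00165; rho = 0.64, permutation adjusted p = 0.0466) and *Tnni1* (r = 0.71, permutation adjusted p = 0.00403; rho = 0.65, permutation adjusted p = 0.0466) passed by both measures. Without the 2 farthest mice both were at 0.67. *Tnnt1* ran from 3336 to 4894 CPM in mice 1 to 6, from 2490 to 3229 in males and from 2922 to 3761 in mice 20 to 25. The permutations did not hold sex or runs of numbers fixed, and the part of these in the correlations was not tested. *Myh7*, the slow myosin heavy chain gene, did not pass (r = 0.42, permutation adjusted p = 0.218; rho = 0.19, permutation adjusted p = 0.739), and was at 0.84 in females and -0.74 in males. *Acot2*, a mitochondrial acyl-CoA thioesterase (0.72), *Cd36*, a fatty acid transporter (0.64), *Tnnc1* (0.66) and *Acta1* (0.57) passed by r but not by rho, for which the adjusted permutation p was 0.0706, 0.0706, 0.113 and 0.113. In males r was 0.23 for *Acot2* and 0.41 for *Cd36*, and in females 0.92 and 0.93. With library totals in place of TMM scaling, *Acta1* was at 0.40 (adjusted permutation p = 0.307). In all, 3 of 14 PPAR and fatty acid oxidation genes and 4 of 11 muscle fiber genes passed by r, and 0 of the 10 glucocorticoid- and FoxO-responsive genes. Of the latter, *Sgk1* (r = -0.61), *Per1* (-0.60) and *Tsc22d3* (-0.58) lay just outside the threshold with negative r (adjusted permutation p = 0.0509 for each). Members of that list went both ways, with r up to 0.40 (*Fkbp5*) and a median of -0.16. *Pcx* (r = -0.57) and *Plin2* (r = 0.50), of other lists, had the same adjusted permutation p. Neither passed with library totals (adjusted permutation p = 0.420 and 0.263). With library totals *Per1* passed (r = -0.68, adjusted permutation p = 0.0345), as did *Angptl4*, a PPAR target (r = 0.66, adjusted permutation p = 0.0436, against 0.61 and 0.0509 with TMM), while *Sgk1* was at -0.63 (adjusted permutation p = 0.0885) and *Tsc22d3* at -0.39 (adjusted permutation p = 0.375). For all 16339 other tested genes the median r with *Pdk4* was -0.02, with quartiles of -0.26 and 0.23 and a highest r of 0.86. The permutation test was run on the 110 listed genes only. The counts passing by r thus have no share over all tested genes beside them, and whether they exceed that share was not tested.

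**Figure D4:**
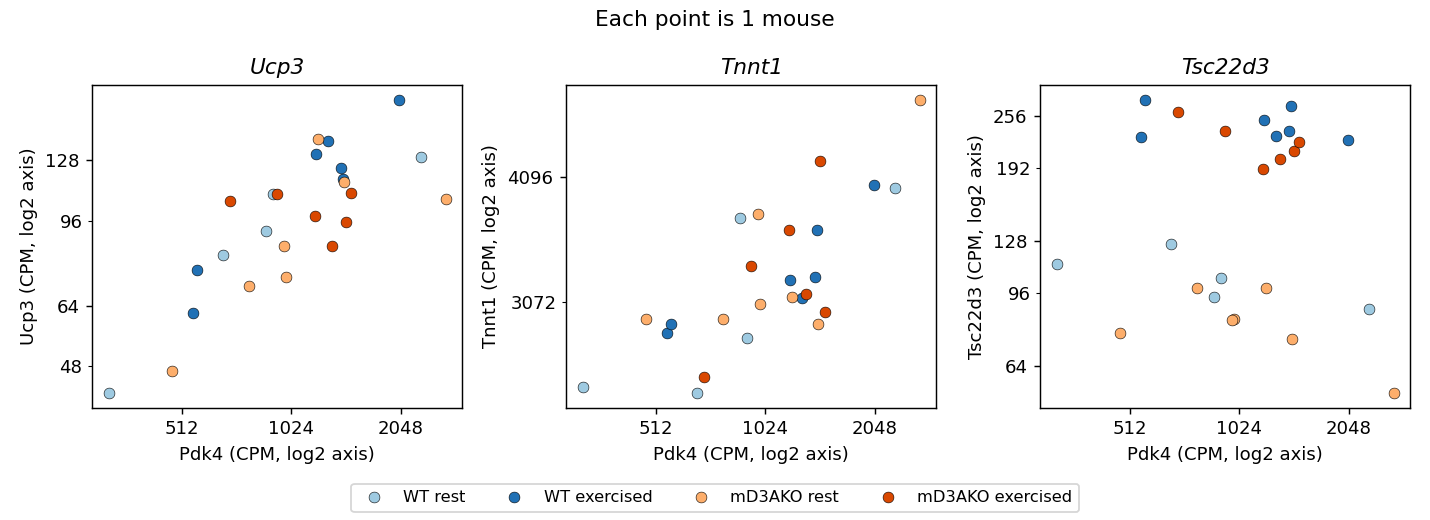
*Ucp3*, *Tnnt1* and *Tsc22d3* against *Pdk4* in CPM on log2 axes, 1 point per mouse, colored by group. *Ucp3* and *Tnnt1* are higher where *Pdk4* is higher over the 25 mice, although for *Ucp3* this is not seen among the 6 exercised mD3AKO mice, while *Tsc22d3* is higher in exercised than in rested mice over the range of *Pdk4* and within groups has a negative r of -0.58 with it (adjusted permutation p = 0.0509).

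None of the 7 adipocyte markers passed in their correlation with *Pdk4*, with r from -0.60 to -0.53 (adjusted permutation p from 0.0509 to 0.0634). With library totals r was -0.44 to -0.32 (adjusted permutation p from 0.263 to 0.477), while with TMM scaling it was -0.30 to -0.068 within mice 1 to 6, -0.85 to -0.54 within mice 20 to 25 and -0.75 to -0.47 in males. Their sum ran from 222 to 913 CPM, with *Lep* and *Adipoq* both detected, and by group from 322 to 535 in rested WT, 266 to 913 in exercised WT, 222 to 868 in rested mD3AKO and 264 to 459 CPM in exercised mD3AKO mice. The part of the adipocyte RNA in the *Pdk4* values was not tested. None of the 7 passed the test for exercise. Of 6 endothelial markers 4 fell after exercise, beside 4.69% of all tested genes, *Kdr* the most by 0.58 (SE 0.0720), and none of the fibroblast, immune, Schwann cell or blood markers did.

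Of exercise, genotype and sex, a member passed the test only for sex. *Pdp2* was at 20.8 ± 3.99 CPM (SD, n = 12) in females and 16.5 ± 3.40 CPM (SD, n = 13) in males, a log2 difference of -0.39 (SE 0.105, 95% interval -0.61 to -0.17, edgeR adjusted p = 0.0233). Females ran from 16.1 to 26.7 with a median of 19.4 and males from 8.65 to 22.8 with a median of 16.1, so that the sexes overlapped. This was 1 of 7 members, and sex called 8.65% of all tested genes. Mice 1 to 6 were at 21.3 ± 4.82 and mice 20 to 25 at 20.3 ± 3.35 CPM. Both runs of females were also set against the males one at a time, with sex as an additive term, a split chosen after seeing the data. Against mice 1 to 6, where 4.52% of all tested genes were called, the males were lower by 0.44 (edgeR adjusted p = 0.0278), and against mice 20 to 25, where 14.3% were called, the difference was -0.31 and did not pass (edgeR adjusted p = 0.108). Without mouse 1, a rested WT female, the difference was -0.34 and did not pass (edgeR adjusted p = 0.0698).

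**Figure D5:**
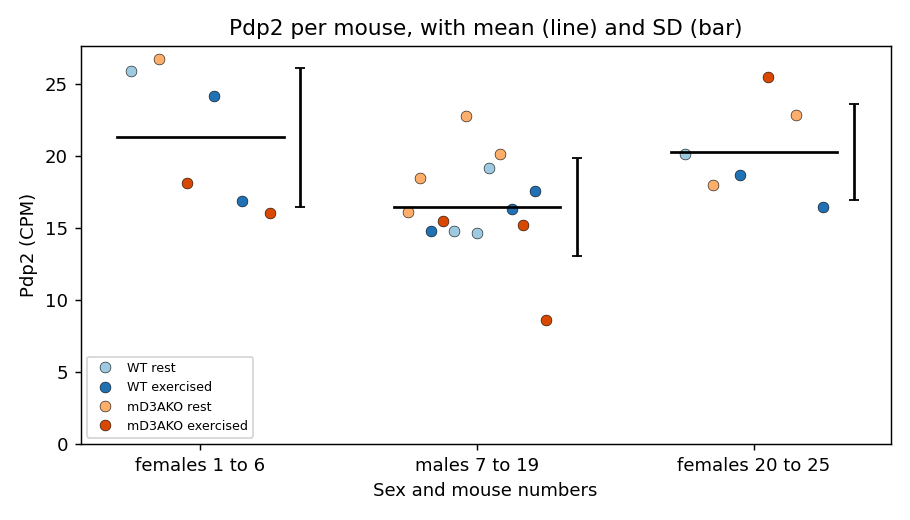
*Pdp2* in CPM in 3 runs of mouse numbers, with 1 point per mouse colored by group, a line at the mean and a bar of 1 SD. Means are 21.3 in females 1 to 6, 16.5 in males and 20.3 CPM in females 20 to 25, and the 3 runs overlap.

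The share of *Pdp1* in the phosphatase sum was 83.0 ± 4.05% in females and 87.9 ± 1.45% in males. *Pdp1* itself was at 83.7 ± 20.7 CPM in females and 94.6 ± 16.5 CPM in males, a log2 difference of 0.13 (SE 0.111) that did not pass. *Pdk4* was at 1365 ± 691 CPM in females and 991 ± 369 CPM in males, a log2 difference of -0.53 (SE 0.264, edgeR adjusted p = 0.232). The females differed among themselves: mice 1 to 6 were at 1815 ± 662 CPM and mice 20 to 25 at 915 ± 355 CPM. Against mice 1 to 6 alone the males were lower by 0.92 (edgeR adjusted p = 0.0489), and against mice 20 to 25 alone the difference was 0.10, of the other sign. *Pdk1* and *Pdpr* passed only against mice 20 to 25, the contrast that called 14.3% of all tested genes, where males were higher by 0.20 (edgeR adjusted p = 0.0242) and 0.22 (edgeR adjusted p = 0.0278). In the test of whether the exercise response differed by sex, 0 of 7 members were called, 0 at an unadjusted p under 0.05, and 0.0551% of all tested genes called.

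Some members moved together across mice. Among the 21 pairs, deviations from group means correlated for *Pdk2* with *Pdpr* (r = 0.78, permutation adjusted p = 0.00042; rho = 0.72, permutation adjusted p = 0.00336), for *Pdk1* with *Pdpr* (r = 0.72, permutation adjusted p = 0.0043; rho = 0.72, permutation adjusted p = 0.0042) and for *Pdk2* with *Pdp1* (r = 0.56, permutation adjusted p = 0.0274; rho = 0.54, permutation adjusted p = 0.0464). Without the 2 farthest mice r was 0.68, 0.65 and 0.59, and without mouse 15 it was 0.73, 0.65 and 0.48. Within mice 1 to 6 the 3 pairs were at 0.89, 0.11 and 0.68, and within mice 20 to 25 at 0.43, 0.46 and 0.68, so that *Pdk1* with *Pdpr* was weaker within both runs of females. With library totals in place of TMM scaling only *Pdk2* with *Pdpr* passed (r = 0.66, adjusted permutation p = 0.0439), and the other 2 were at 0.55 and 0.41 (adjusted permutation p = 0.141 for both). The TMM factor itself had r of -0.69 with *Pdk1*, -0.64 with *Pdk2*, -0.72 with *Pdpr*, -0.42 with *Pdp1*, 0.45 with *Pdk3*, -0.13 with *Pdk4* and 0.044 with *Pdp2*. Without mouse 15 these were -0.67, -0.61, -0.83, -0.16, 0.41, -0.30 and 0.25, and the part of the factor in these correlations was not tested.

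*Pdk2* with *Pdk3* (r = -0.63, permutation adjusted p = 0.0389) and *Pdk4* with *Pdp2* (r = 0.49, permutation adjusted p = 0.0389) passed by r but not by rho (adjusted permutation p = 0.143 for both). Without the 2 farthest mice they were at -0.34 and 0.36. The first was at 0.048 with library totals, of the other sign. The second was 0.72 in females and 0.091 in males, and with library totals it did not pass (r = 0.49, adjusted permutation p = 0.0854). *Pdk4* did not correlate past the threshold with any other kinase, with r of 0.39 for *Pdk1* (0.80 in females, 0.28 in males), -0.33 for *Pdk3* (-0.71 in females, -0.20 in males) and -0.02 for *Pdk2* (0.38 in females, -0.31 in males).

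The genes most like each member over the 25 libraries, among 12686 genes whose log2 CPM averaged 0 or more, are given by Pearson's r as a description. For *Pdk4* they were *Krr1* (0.84), *Uspl1* (0.82) and *Eif2s1* (0.80). For *Pdk2* they were *Adssl1* (0.89), *Rps6ka2* (0.86) and *Ogdh* (0.85), and for *Pdpr* *Ubr3* (0.90), *Mfn2* (0.90) and *Ogdh* (0.89). *Ogdh*, which encodes the E1 subunit of the sister complex that oxidizes 2-oxoglutarate, thus stood among the nearest of both. *Pdk1* was nearest *Fyttd1* (0.88), *Guf1* (0.87) and *Rabggtb* (0.86), *Pdp1* nearest *Clcn3* (0.86), *Castor2* (0.82) and *Hdac11* (0.79), *Pdp2* nearest *Klhl24* (0.82), *Ybey* (0.82) and *4930412C18Rik* (0.80), and *Pdk3* nearest *Tspan6*, *Dusp11* and *Ints2* (all 0.74). All points share the scaling by library, and mouse 15 is among them. *Pdpr* shares 169 bases of exon, 3.36% of its length, with *9430091E24Rik* on the other strand, and reads there cannot be assigned to 1 of the 2 where counting ignored the strand.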

How the data were processed

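Total RNA of the *soleus* was depleted of ribosomal RNA, made into stranded libraries and sequenced as paired ends. Per the submitters' processing notes, FastQC 0.11.5, STAR 2.5.3a and featureCounts 1.5.3 were used with mm10; the methods name GENCODE M15. Whether counting used the strand is not given in the sources used here. The authors deposited raw read counts per gene, without normalization, and the total exon length of each gene.

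Symbols came from GENCODE M21 and matched 52403 of 52636 genes. Genes were kept by filterByExpr (minimum count 10, minimum total 15). Differences were tested by quasi-likelihood F tests in edgeR 4.0.16 (limma 3.58.1, R 4.3.3) after TMM scaling, with 1 mean for each of the 4 groups, or 8 groups for sex. Benjamini-Hochberg adjustment ran over all 16340 tested genes, and genes were called under 0.05. CPM used TMM-scaled library sizes, and log2 CPM a prior count of 2. Scripts were tested on simulated data. Alternatives were DESeq2 1.42.0, no TMM, no filter, sex or runs of mouse numbers in the model, each sex alone, ribosomal RNA genes left out, other gene lengths and each mouse left out. No 2 libraries of a group (67 pairs) matched within sampling noise, as the lowest chi-square per degree of freedom was 14.5. Separate mice are named by the labels, and intervals cover the spread between them.

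The members and lists were chosen with earlier results of these data known. The named genes were the members, *Dnmt3a*, up to 5 called genes of each list with the smallest exercise p and its defining genes, and the 3 genes most like each member. Genes named for their correlation with *Pdk4*, *Myh7*, and *Fbxo32*, *Nr3c1* and *Ppard*, were chosen after their values were seen. All other assays of the study were not analysed here.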

Additional observations from a re-analysis of the deposited data

Results flagged for a closer look

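In 28 sets of values (7 genes in 4 groups), a mouse stood far from the others of its group in 2, by a criterion that chance meets in about 1 in 20 groups. Mouse 2, a rested mD3AKO female, had the highest *Pdk4* value of its group at 2724 CPM (92866 counts). The nearest mouse of the group was at 1434 CPM and the lowest at 483 CPM. Without mouse 2 the exercise difference of *Pdk4* was 0.25 and did not pass (edgeR adjusted p = 0.645). Mouse 4, an exercised WT female, had the highest *Pdp2* value of its group at 24.2 CPM (639 counts), with the nearest mouse at 18.7 CPM and the lowest at 14.8 CPM. Without mouse 4 the sex difference of *Pdp2* was -0.36 (edgeR adjusted p = 0.0348).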

How the results depend on the processing

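No paired analysis was possible because each mouse has its own number in the labels. Of 1372 alternative fits of a member in 42 comparisons, 1257 kept the direction and the side of the threshold, 110 changed sign, 3 passed only in the alternative and 2 lost the call; all 5 of the last concern sex. The causes were not tested, and no member passed for exercise, genotype or the interaction under any alternative. With library totals in place of TMM, which moved the median sex difference of all genes by -0.10 (log2), the genes called were 927 for exercise, 293 for exercise in WT, 484 for exercise in mD3AKO, 29 for genotype and 756 for sex, and the sign changed for exercise *Pdk2* -0.0013, for exercise in WT *Pdk2* -0.0016, for exercise in mD3AKO *Pdk3* -0.013, for genotype *Pdk2* -0.0011, *Pdp1* -0.031, *Pdp2* -0.016 and *Pdpr* -0.0098, for the interaction *Pdk2* 0.00067 and for sex *Pdk1* -0.014, *Pdk2* -0.055, *Pdk3* -0.071 and *Pdpr* -0.025; the correlation of *Pdk2* and *Pdk3* was 0.048. DESeq2 called 81 genes for genotype. In males alone the genes called were 966 for exercise, 207 for exercise in WT, 630 for exercise in mD3AKO and 23 for genotype, and the sign changed for exercise *Pdk1* 0.038 and *Pdk2* -0.021, for exercise in WT *Pdk1* 0.015 and *Pdpr* 0.061, for exercise in mD3AKO *Pdk3* -0.018 and *Pdk4* 0.077, for genotype *Pdp1* -0.0099 and *Pdp2* -0.028 and for the interaction *Pdp1* -0.26. In females alone the genes called were 512 for exercise, 186 for exercise in WT, 184 for exercise in mD3AKO and 6 for genotype, and the sign changed for exercise *Pdk3* 0.026, *Pdk4* -0.24 and *Pdpr* -0.019, for exercise in WT *Pdk4* -0.25, for exercise in mD3AKO *Pdk2* 0.058 and *Pdp1* 0.21, for genotype *Pdk4* -0.19, *Pdp1* -0.017 and *Pdpr* -0.0026 and for the interaction *Pdk2* 0.055, *Pdk4* 0.012 and *Pdp2* 0.099. With sex in the model 72 genes were called for genotype, and the sign changed for exercise in WT *Pdpr* 0.0062 and for exercise in mD3AKO *Pdk2* 0.0040. With runs of mouse numbers in the model 97 genes were called for genotype, and the sign changed for exercise *Pdk3* 0.0010 and for exercise in WT *Pdpr* 0.0052. It also changed for exercise *Pdk2* -0.00011 with no filter and for exercise in mD3AKO *Pdk2* 2.1e-05 without ribosomal RNA genes. Alternatives chosen after seeing the data set males against mice 1 to 6 (2 members and 729 genes called, *Pdk4* -0.92, *Pdpr* -0.029) and against mice 20 to 25 (2 members and 2337 genes called, *Pdk1* 0.20, *Pdk3* -0.0032, *Pdk4* 0.10, *Pdp2* -0.31, *Pdpr* 0.22). Lengths of the longest transcript gave 52.1 CPM per kilobase for *Pdk1*, 111 for *Pdk2* and 1.19 for *Pdk3*. Leaving out each mouse in turn gave, where a sign or call changed, these ranges: for exercise *Pdk1* -0.042 to 0.0100, *Pdk2* -0.032 to 0.032, *Pdk3* -0.046 to 0.051 and *Pdk4* -0.020 to 0.37, for exercise in WT *Pdk2* -0.023 to 0.041, *Pdp2* -0.18 to 0.053 and *Pdpr* -0.040 to 0.028, for exercise in mD3AKO *Pdk2* -0.074 to 0.062, *Pdk3* -0.029 to 0.15 and *Pdk4* -0.20 to 0.27, for genotype *Pdk3* -0.014 to 0.072, *Pdk4* -0.048 to 0.40, *Pdp1* -0.048 to 0.054 and *Pdp2* -0.074 to 0.080, for the interaction *Pdk2* -0.083 to 0.059, *Pdk4* -0.86 to 0.026 and *Pdp1* -0.0020 to 0.24, for sex *Pdk3* -0.034 to 0.063 and *Pdp2* -0.43 to -0.33. *Pdp2* lost the sex call only without mouse 1, so 0 to 1 members were called, with 865 to 1769 genes. Depth limits *Pdk3* most, at 29 to 142 counts a library.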
